A study of Mus musculus with 2 samples.

Results

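The genes described here are those of insulin-like growth factor (IGF) signaling: the ligand Igf1, the receptors Igf1r and Insr, and the binding proteins Igfbp2, Igfbp3, Igfbp4, Igfbp5, Igfbp6 and Igfbp7. They were taken by gene name from the array, which gave 9 of 29875 genes and 17 of 39429 biological probes. RNA of wildtype NMRI mouse ureters was compared after treatment with the GSK3 inhibitor BIO (6-bromoindirubin-3-oxime) and after treatment with the solvent. All ureters were dissected at E12.5, sex not determined, and kept on transwell membranes for 18 h in medium to which, per the study's methods, no serum was added. The medium held 10 µM BIO or, for the control, DMSO at 2 parts per 1000. Each RNA came from a pool of whole ureters, cut below the kidney and above the bladder, so that a value sums over ureteric mesenchyme (UM), ureteric epithelium (UE), vessels and other cells. There were 2 two-color arrays, each with 1 control pool and 1 BIO pool. The control was green and BIO red on array 1, and the dyes were exchanged on array 2.

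IGF1 and IGF2 are secreted growth factors that bind the receptor tyrosine kinase IGF1R and can also bind the insulin receptor. They signal through IRS adaptors to PI3K and AKT and to the MAP kinases. The binding proteins IGFBP1 to IGFBP6 hold most extracellular IGF, extend its half-life and restrict its access to the receptor, and proteases that cleave them set IGF free. In embryos the pathway is known as a driver of growth. GSK3, the kinase that BIO inhibits, is itself a substrate of AKT as well as a part of the complex that destroys β-catenin, and BIO is used to activate canonical WNT signaling.

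Across the members, 0 of 9 genes rose and 6 fell with BIO by the limma test over the 2 arrays (adjusted p below 0.05): Igf1, Igfbp2, Igfbp3, Igfbp4, Igfbp5 and Igfbp7. Of the 21574 genes tested, 9.13% rose and 14.8% fell, 23.9% in all, so the share of members that fell, 66.7%, was above the background. This is a description and not a test, since the members were chosen with earlier results of these data known. Among the cell type markers described below, 64.7% fell. The median log2 ratio was -0.52 over the members and -0.01 over all genes tested. Igf1r, Insr and Igfbp6 did not pass the test. Igfbp2 no longer passed with the processed signals, Igfbp2 and Igfbp7 not with median centering, and with the authors' rounded score per probe, or with spot means of the processed signals set to a floor, Igfbp3 was the only one of the 6 that did. For its arrays of Ctnnb1 mutant ureters the study states cut-offs, an intensity of at least 100 and a fold change of at least 2 on both arrays. For its arrays of explants cultured 18 h with the WNT inhibitor IWP-2 it states values above 100 and above 2. The cut-offs of the mutant arrays were applied to the present arrays, with the intensity taken from the brighter channel. They left Igfbp3 as the only member, which was lower. By that rule 3.07% of all genes changed, 2.12% lower and 0.946% higher. All 17 probes were well above background in both channels of both arrays, all 17 were tested, and 11 of them passed, against 23.2% of all probes.

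The probes of the member that fell most and of the member whose probes differ most are given first, since the values below belong to these sequences. The first 30 of the 60 bases of each probe are shown, 5′ to 3′, in mm9. Both Igfbp3 probes lie on the minus strand, the upper one (chr11:7106624-7106653) on the RefSeq transcript and the lower one (chr11:7107979-7108008) on an Ensembl transcript. Both Igf1 probes lie on the plus strand, the upper one (chr10:87393581-87393610) on NM_010512 and the lower one (chr10:87378456-87378485) on the transcript variant NM_184052.
Igfbp3, NM_008343: gcagttttccaaaaacacagatttcttttc
Igfbp3, ENSMUST00000135887: ggagaacctggcatatttggtttctgaatt
Igf1, NM_010512: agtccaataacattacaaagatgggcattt
Igf1, NM_184052: aaccattaaaaacatgccaccaagaccttc

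Igf1, the ligand, was lower with BIO in both pools. At its brightest probe (base 909 of NM_010512, chr10:87393581-87393640, mm9) the processed signal, a linear intensity, was 2136 in the control and 636 with BIO on array 1, and 2232 and 1244 on array 2. The controls lay close to each other and well above both BIO values, which differed between the arrays. The log2 ratio of BIO over control was -1.77 on array 1 and -0.88 on array 2. Their mean was -1.33 ± 0.19 (moderated SE of the limma fit, n = 2, adjusted p = 0.00193, limma). Each SE given here is of this kind and draws on the spread of all probes tested. The SD of the 2 ratios of Igf1 alone was 0.63. Of all genes tested, 1.41% lay further below 0 than Igf1. The gap between the arrays, 0.89, was larger than that of 99.0% of the probes tested, whose median gap was 0.162. The size of the fall of Igf1 is thus less certain than its direction. The arrays differed both in their pools and in the dye given to BIO, and these cannot be told apart in a gap between arrays.

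The array holds 5 probes of Igf1, and they did not fall by the same amount. The probe at base 889, which shares 40 bases with the brightest one, had a log2 ratio of -1.28 ± 0.19 (SE). The probe at base 6909 went from 1207 to 442 on array 1 and from 1349 to 817 on array 2, a log2 ratio of -1.12 ± 0.17 (adjusted p = 0.00226, limma). The probe at base 3252 went from 98.1 to 56.6 and from 121.0 to 90.0, a log2 ratio of -0.54 ± 0.12 (adjusted p = 0.0131, limma). These 4 probes of NM_010512 thus all fell. The probe of NM_184052 went from 382 to 321 and from 430 to 351, which was lower on both arrays, with a log2 ratio of -0.32 ± 0.11 (adjusted p = 0.0677, limma), and did not pass the test. The difference between the probes was not tested, and whether it follows the transcript variants cannot be read from single probes.

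Igf1r, the receptor tyrosine kinase for both IGFs, had a processed signal of 12411 in the control and 9345 with BIO on array 1, and of 13224 and 11053 on array 2 (chr7:75378461-75378520, mm9). Both BIO values were below both controls, by a small step. The log2 ratio was -0.53 and -0.24, with a mean of -0.38 ± 0.12 (SE; 95% interval -0.66 to -0.11), and the adjusted p of 0.0512 (limma) just missed the threshold. It passed with an intensity trend in the variance (0.0330), with the mean of a gene's probes in place of the brightest (0.0387) and with the filter on both channels (just below the threshold). The array holds only this probe of Igf1r, so its ratio stayed at -0.38 in each of these settings. What changed was the fit over all genes. Igf1r did not pass under the other alternatives. Its adjusted p there (limma) ran from 0.0590 without background correction to 0.481 with median centering, where the log2 ratio was -0.30. With the processed signals it was 0.118 and with the deposited scores 0.160.

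Insr, the insulin receptor, gave no detectable change. Its brightest probe (chr8:3151667-3151726, mm9) went from 2128 to 2072 on array 1 and from 2313 to 2242 on array 2. The log2 ratio was -0.06 ± 0.11 (SE; adjusted p = 0.739, limma), and the 95% interval of -0.31 to 0.19 leaves room for a small change in either direction. A probe at base 6193 went from 937 to 982 and from 1007 to 1013. Its mean log2 ratio was -0.01 in the fit, which normalizes the arrays separately from the processed signals. From the processed signals alone it was 0.07 and 0.01 on the arrays. A probe at base 4745 went from 53.1 to 85.0 on array 1 and from 88.5 to 88.3 on array 2, and was the only one of the 17 whose ratios had opposite signs.

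**Figure D1:**
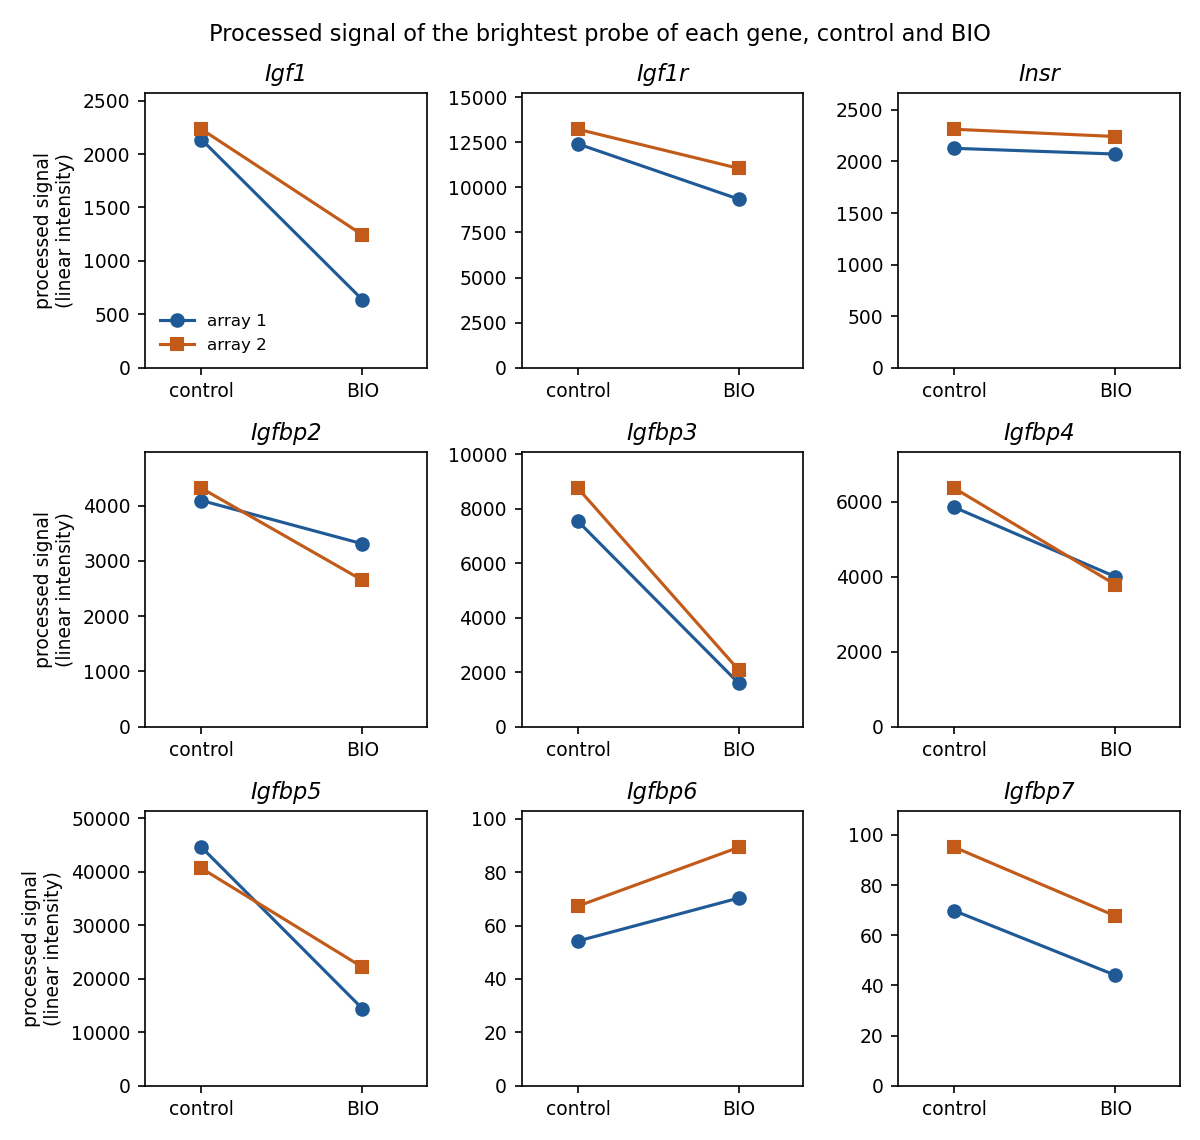
Processed signal (linear intensity, y axis from 0) of the brightest probe of each of the 9 genes in the control and the BIO pool, with a line joining the pools of 1 array (blue, array 1; orange, array 2). Both BIO values lie below both controls for 7 of the genes, while the values of Insr overlap between the groups and both lines of Igfbp6 rise. The y scales differ between genes and are not to be compared.

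Among the binding proteins, 5 of 6 fell, with a median log2 ratio of -0.60. Igfbp3, the main carrier of IGF in serum, fell most. At its brightest probe (chr11:7106594-7106653, mm9) the processed signal was 7536 in the control and 1586 with BIO on array 1, and 8748 and 2070 on array 2. The highest BIO value was far below the lowest control value. The log2 ratio was -2.27 and -2.11, with a mean of -2.19 ± 0.11 (SE) and a 95% interval of -2.45 to -1.93 (adjusted p = 3.2e-05, limma). Only 46 genes of the 21574 had a more negative ratio. The second probe of Igfbp3 went from 221 to 30.5 and from 287 to 48.2, a log2 ratio of -2.09 ± 0.11 in the fit, whose offset pulls ratios of low signals toward 0. From the processed signals alone, the log2 ratio of this probe was -2.85 and -2.58 on the arrays, and that of the first probe -2.25 and -2.08.

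Igfbp5, a binding protein that attaches to extracellular matrix, fell with a larger gap between the arrays. Its probe (chr1:72904829-72904888, mm9) had a processed signal of 44575 in the control and 14400 with BIO on array 1, and of 40631 and 22153 on array 2. The log2 ratio was -1.69 and -0.88, with a mean of -1.29 ± 0.18 (SE; adjusted p = 0.00172, limma), and the gap between the arrays was larger than that of 98.6% of the probes tested. Igfbp2 is the neighbor of Igfbp5 on chromosome 1, and the nearest probes of the genes are 5956 bases apart. Igfbp2 fell by less: its brightest probe (chr1:72898813-72898872) went from 4090 to 3307 and from 4312 to 2648, a log2 ratio of -0.52 ± 0.13 (SE; adjusted p = 0.0223, limma). The further probe of Igfbp2 gave -0.50 ± 0.13 and also passed. The arrays differed in opposite ways for these neighbors, since Igfbp5 was more negative on array 1 and Igfbp2, with -0.32 and -0.71, on array 2.

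Igfbp4, an IGFBP that is cleaved by the protease PAPPA, went from 5849 to 3998 on array 1 and from 6358 to 3788 on array 2 (chr11:98913334-98913393, mm9). Both BIO values were clearly below both controls. The log2 ratio was -0.67 ± 0.11 (SE; adjusted p = 0.00402, limma). Igfbp7, which binds IGFs with low affinity, had signals below 100 and went from 69.7 to 44.0 and from 95.1 to 67.7 (chr5:77778271-77778330). Both BIO values were below both controls, but the BIO value of array 2 was close to the control value of array 1. Its log2 ratio was -0.47 ± 0.11 (adjusted p = 0.0178, limma). Igfbp6, which prefers IGF2 to IGF1, went the other way, from 54.2 to 70.3 and from 67.3 to 89.3 (chr15:101979852-101979911). Its log2 ratio of 0.23 ± 0.11 did not pass the test (adjusted p = 0.180, limma; 95% interval -0.03 to 0.48). From the processed signals alone, the log2 ratios on the arrays were 0.37 and 0.42 for Igfbp6, and -0.67 and -0.49 for Igfbp7. With these signals Igfbp6 did not pass either (adjusted p = 0.0778, limma).

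**Figure D2:**
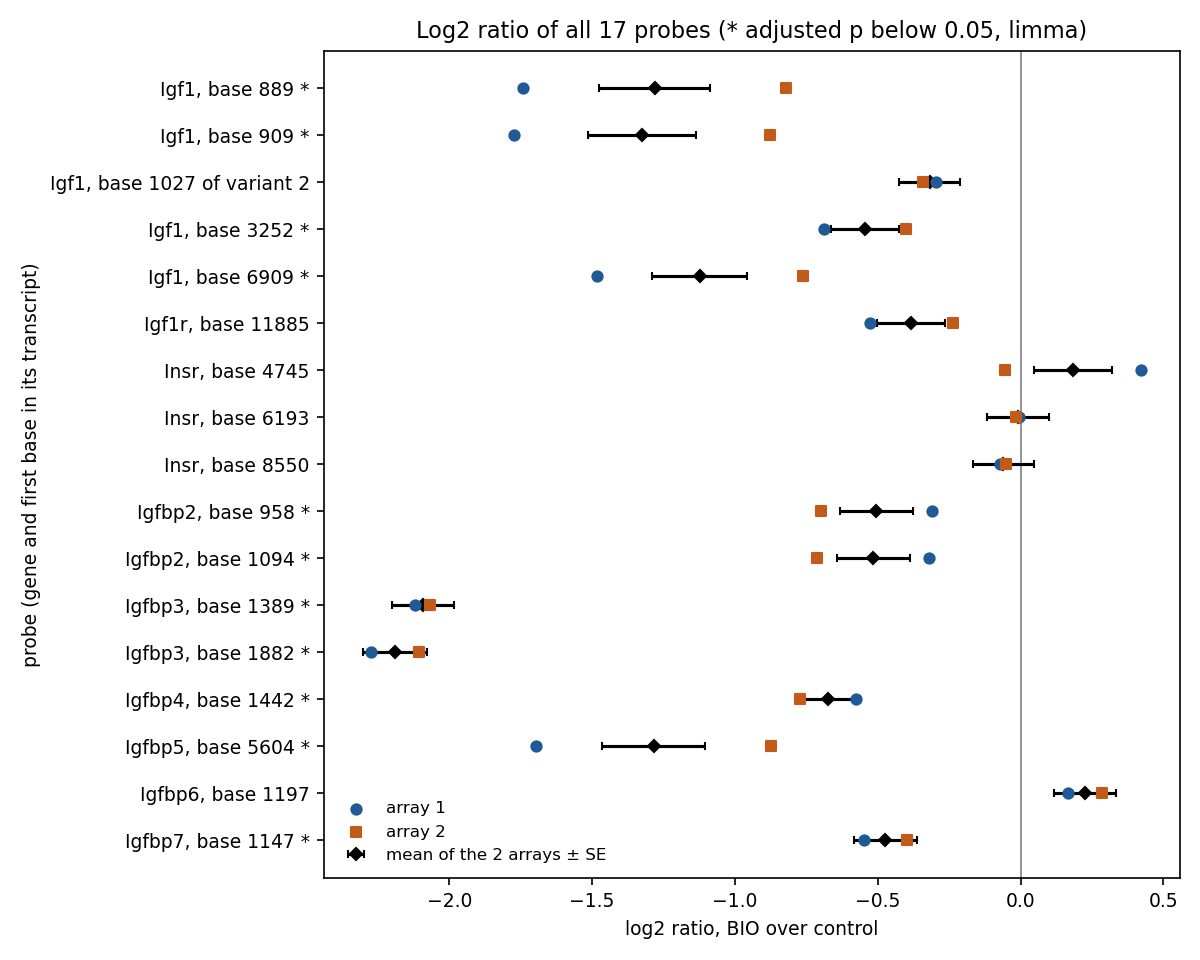
Log2 ratio of BIO over control (x axis) for each of the 17 probes, named by gene and by the first base in its transcript. Circles and squares are arrays 1 and 2, and diamonds the mean with the moderated SE of the limma fit as bar. Stars mark an adjusted p below 0.05 (limma). The Igfbp3 probes sit near -2 on both arrays, while Igf1 and Igfbp5 show the widest gaps between the arrays, and the probes of Insr lie around 0.

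**Figure D3:**
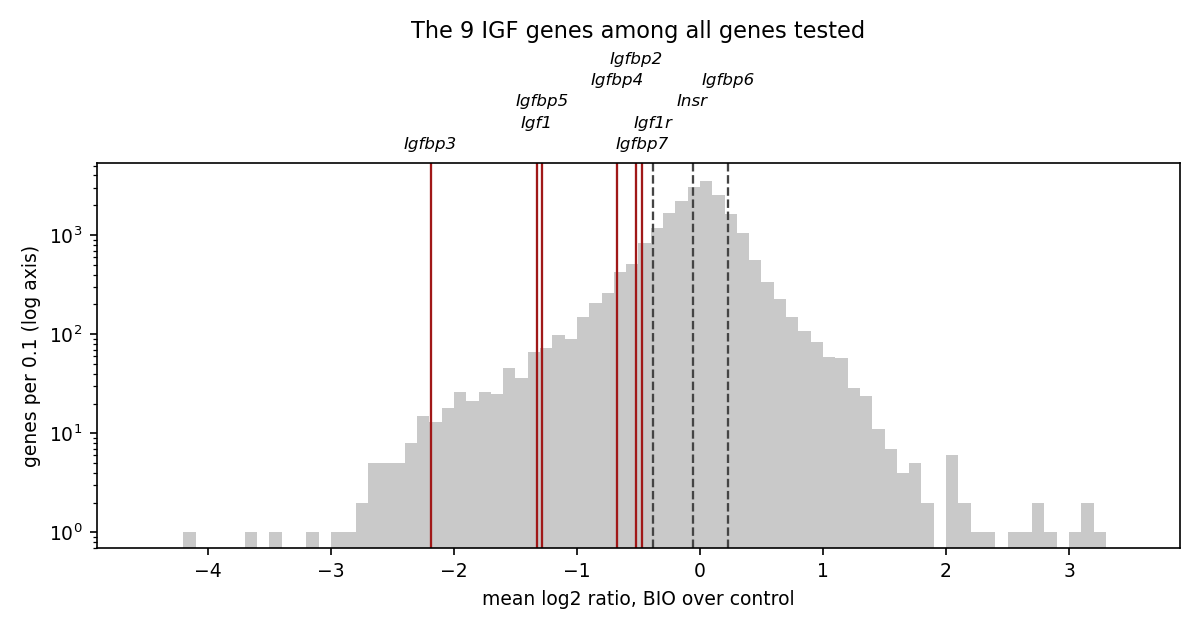
Number of genes (y axis, log scale) per 0.1 of mean log2 ratio of BIO over control (x axis) for the 21574 genes tested, with the 9 IGF genes as lines, solid and red where the adjusted p was below 0.05 and dashed where not. The 6 solid lines all lie below 0, with Igfbp3 at -2.19, Igf1 at -1.33 and Igfbp5 at -1.29 in the lower tail.

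Stretches of 120 bases of the promoters of Igf1, Igf1r, Igfbp3 and Igfbp5 are shown next, because Igf1, Igfbp3 and Igfbp5 were the members that fell most, Igf1r holds the motif searched, and BIO acts on the β-catenin pathway. Windows of 250 bases before to 50 after the gene start came from RefSeq (GRCm38.p6), and 8 of the 9 genes matched, with 9 windows. Capitals mark CTTTGA, the core letters read by TCF/LEF factors, which were searched on both strands (reverse TCAAAG). The Igf1 stretch is chr10:87860868-87860987 and the Igf1r stretch chr7:67952111-67952230, both on the plus strand. The Igfbp3 stretch is chr11:7213924-7214043 and the Igfbp5 stretch chr1:72874866-72874985, both on the minus strand and ending just before the start.
Igf1: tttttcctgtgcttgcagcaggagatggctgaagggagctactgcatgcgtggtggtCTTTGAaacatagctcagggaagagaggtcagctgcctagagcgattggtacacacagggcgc
Igf1r: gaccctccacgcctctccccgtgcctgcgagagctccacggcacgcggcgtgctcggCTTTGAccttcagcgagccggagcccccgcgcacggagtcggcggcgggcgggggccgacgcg
Igfbp3: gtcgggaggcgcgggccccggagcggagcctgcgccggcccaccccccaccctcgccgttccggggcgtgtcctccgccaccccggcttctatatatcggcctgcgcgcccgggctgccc
Igfbp5: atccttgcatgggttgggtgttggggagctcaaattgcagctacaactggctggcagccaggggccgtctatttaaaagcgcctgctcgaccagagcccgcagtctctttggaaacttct

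The letters CTTTGA stood in 2 of the 9 windows, 186 bases before the start of Igf1 and 89 bases before that of Igf1r, and in 5257 of all 32851 windows. GTAAACA (reverse TGTTTAC), which does not overlap with the first motif and is read by FOXO factors, stood in 0 of the 9 windows and in 1199 of all (3.65%). The windows of Igfbp3 and Igf1r were rich in G and C, 71.7% and 76.0%, and those of Igf1 and Igfbp5 were near the median of all windows, 52.7%, with 52.3% and 56.3%. A match is a description of the letters and not a site of binding.

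The other ligands, receptors and carriers of the pathway fell or did not pass: of 9 tested, 0 rose and 4 fell, with a median of -0.22. Igf2, the main embryonic IGF, went from 10576 to 5177 on array 1 and from 8033 to 4444 on array 2, a log2 ratio of -0.96 ± 0.11 (SE; adjusted p = 0.000725, limma). Ghr, the growth hormone receptor, fell by 0.86, the endocytic receptor Lrp2 by 0.89 and the insulin receptor-related receptor Insrr by 0.63 on the log2 scale. Igf2r, which clears IGF2, had a log2 ratio of -0.22 (adjusted p = 0.200, limma). Igfbp1, the neighbor of Igfbp3, was at -0.09 and did not pass either.

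Of 10 tested proteases that cleave binding proteins, and the inhibitors of such proteases, 1 rose and 4 fell, with a median of -0.35. The riser was Htra1, a secreted serine protease that cleaves IGFBPs: its processed signal went from 320 to 2476 on array 1 and from 376 to 2571 on array 2. Both BIO values were far above both controls, and the log2 ratio was 2.72 ± 0.11 (SE; adjusted p = 2.64e-05, limma). Pappa, the metalloprotease that cleaves IGFBP4, fell from 2740 to 1214 and from 3099 to 1913, a log2 ratio of -0.94 (adjusted p = 0.00277, limma). Htra4 was at -1.01, the metalloproteases Adam12 at -0.80 and Adamts1 at -0.59, and all 3 fell.

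Of 17 tested adaptors and inhibitors of the receptors, 3 rose and 2 fell, with a median of -0.12. Irs1, the adaptor that IGF1R phosphorylates, went from 10464 to 22865 and from 11487 to 24056. Both BIO values were far above both controls, and the log2 ratio was 1.02 ± 0.11 (SE; adjusted p = 0.000445, limma). The adaptors Sh2b2 and Gab1 rose by 0.41 and 0.38. Socs2, a feedback inhibitor of growth hormone signaling, fell by 0.86 and Grb14, an inhibitor of the insulin receptor, by 0.39 on the log2 scale. Grb10, a further inhibitor, was at -0.17 (adjusted p = 0.306, limma), and Irs2 at -0.13; neither passed.

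Downstream of the receptors stand the lipid kinase PI3K, AKT and mTOR. Of 28 genes of the PI3K, AKT and mTOR core, 2 rose and 4 fell, with a median of -0.09. Among them, the regulatory subunit Pik3r1 rose by 0.74. The catalytic subunit Pik3cb fell by 0.87, the phosphatase Inpp5d by 0.89 and the transcription factor Foxo1 by 0.38 on the log2 scale. Of 13 genes that FOXO factors are known to induce when AKT is inactive, Insr and Irs2 among them, 0 rose and 4 fell, with a median of -0.06: Cited2 at -0.66, Ccng2 at -0.65, Txnip at -0.61 and Bbc3 at -0.60. With the deposited scores the tally of this list turned to 3 risen and 0 fallen. None of the 3 IGF2 mRNA-binding proteins passed. In all, of 78 tested genes of the pathway other than the members, 6 rose (7.69%) and 18 fell (23.1%), against 9.13% and 14.8% of all genes tested.

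**Figure D4:**
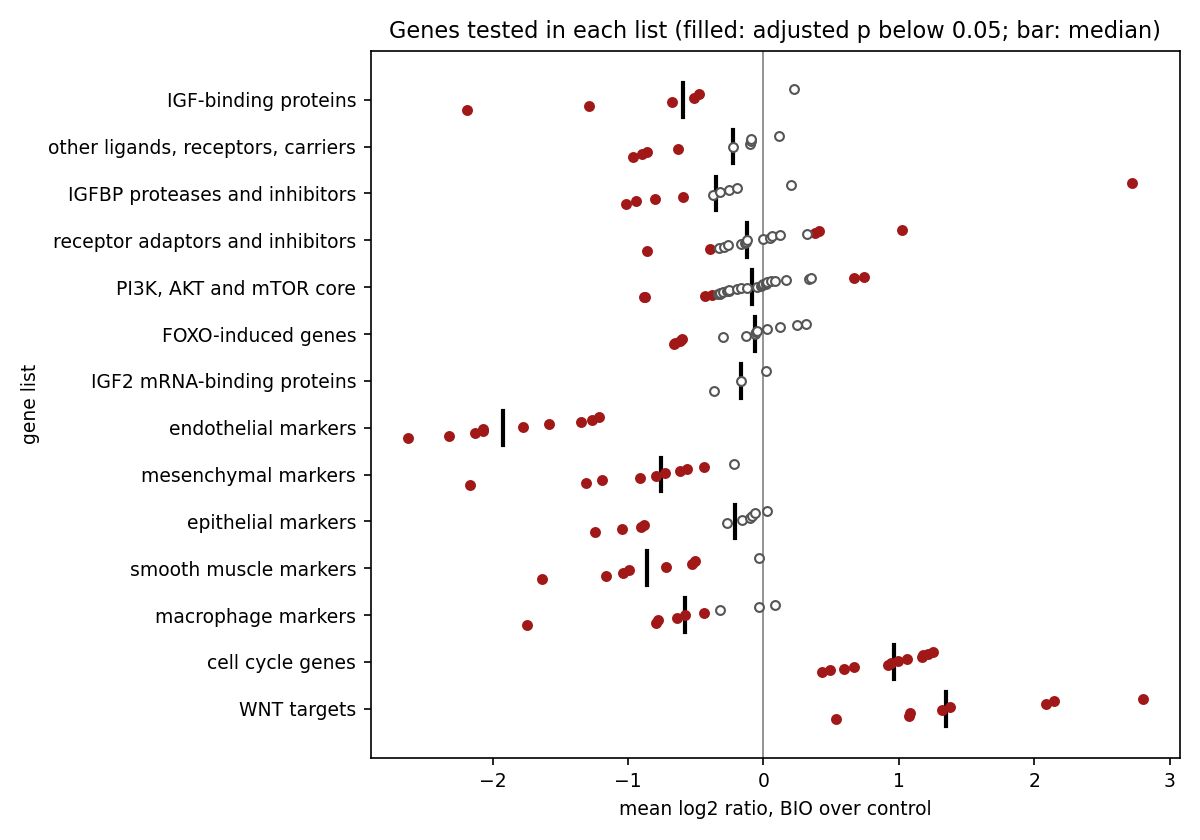
Mean log2 ratio of BIO over control (x axis) of each tested gene in the lists (y axis); filled points had an adjusted p below 0.05 (limma) and the bar is the list's median. The binding proteins and the endothelial, mesenchymal and smooth muscle markers lie mostly below 0, Htra1 stands apart at 2.72 among the proteases, and the cell cycle genes and WNT targets lie above 0.

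Markers of several cell types moved with these genes. The markers of the ureter were present: in the control pools Tbx18, of the UM, had a processed signal of 9371 and 10572, and Epcam, of the UE, of 4219 and 3974. All 10 endothelial markers fell (median -1.92, from Kdr at -2.63 to Tie1 at -1.22), and their summed signal went from 31134 to 6055 on array 1 and from 37754 to 11127 on array 2. Of 10 mesenchymal markers 9 fell (median -0.76, from Pdgfrb at -2.17 to Tbx18 at -0.22), with a summed signal from 331671 to 198061 and from 366004 to 219443. With median centering 4 of these 10 passed (median -0.56), and with the deposited scores 1. Of 8 smooth muscle markers 7 fell (median -0.86), from Acta2 at -1.63 to Myocd at -0.03. Of 10 epithelial markers 4 fell (median -0.21), from Krt19 at -1.24 to Epcam at 0.02.

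Of 9 tested macrophage markers 6 fell, from Cx3cr1 at -1.75 to Mrc1 at 0.08, and their summed signal went from 6194 to 3824 and from 7083 to 5687. Of 7 tested Schwann and neural markers 3 fell (median -0.35), and the highest was Tubb3 at 0.26. Of 6 erythroid markers 2 fell (median -0.37), the lowest being Hbb-y at -0.61. Of 8 kidney mesenchyme markers 3 fell and 1 rose, from Meox1 at -1.53 to Wt1 at 0.58. Fcgr1, of macrophages, was not well above background and was not tested. Over all 68 markers tested, 44 fell (64.7%) and 1 rose. With the processed signals all 10 endothelial markers still fell, but only 3 macrophage markers and 1 Schwann and neural marker. With the deposited scores 3 endothelial, 2 smooth muscle, 1 macrophage and 1 kidney mesenchyme markers fell. Of the epithelial, erythroid, and Schwann and neural lists 0 did. In whole explants fewer cells of a type and less RNA per cell cannot be told apart, and the part of these shifts in the fall of the IGF genes was not tested. All 8 WNT targets rose (median 1.35, Axin2 at 2.15), as did all 12 cell cycle genes (median 0.97), but with the processed signals 7 and 10 of them passed, and with the deposited scores 3 and 5.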

How the data were processed

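The data were 2 Agilent two-color arrays with 60-base probes, each spotted 4 times, and per the labels quantified by the authors with Agilent Feature Extraction 10.7.3.1. The deposited scanner files give spot and background intensities that the authors left uncorrected, and processed signal intensities that Feature Extraction had background-subtracted and dye-normalized. The authors also deposited a score per probe, whose making is not given in the sources used here; it tracks the signed fold change of the processed signals (Pearson r across probes 0.912 and 0.939), with medians of 1 and 1 and unknown centering. Its direction and scale follow from that match.

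Mean intensities were corrected with limma 3.58.1 in R 4.3.3 (normexp, offset 50) and normalized by loess within each array, with control and outlier spots at weight 0 and then left out. Spots of a probe were averaged and the dye-swapped ratio was turned. Probes well above background (more than 0.5 of their spots) in 1 condition on both arrays, 28824 in all, entered lmFit and eBayes, where each mean ratio was tested against 0 in both directions (two-sided), and p-values were adjusted by Benjamini-Hochberg over all of them at 0.05. A gene was represented by its brightest probe. On array 1, 80.9% of the control spots and 70.1% of the BIO spots were well above background, and on array 2 73.7% and 78.1%; 0 spots were saturated. The number of arrays limits the precision: the median SE was 0.111, and the offset pulls ratios of dim probes toward 0. All SEs are moderated by eBayes, so they can be smaller or larger than the spread of a probe's own 2 ratios. Log2 ratios in the text are from this fit, while signals are processed signals. Each array was 1 replicate of separate pools. For the intensity and fold-change rule, processed signals below 15 were raised to 15, and ratios were centered on each array's median. The intensity minimum applied to the brighter channel of each array.

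Probes were named through RefSeq genes of GRCm38.p6 (28328 by accession, 3400 by symbol, 243 by synonym, and 7458 kept the file's name), and coordinates of probes are mm9. Exon and UTR annotation of mm9 and protein sequences were not used here. All member probes are reported, and from each pathway list up to 4 genes that passed in each direction, with Igf2, Igf2r and Grb10 always, and from each marker list the lowest and highest; some genes that this rule names are not reported here. The members and lists were chosen with earlier results of these data known. The model was tested on simulated data, whose spread was drawn from the fit's own prior and in which few probes changed. That test cannot show how well the model fits these arrays.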

Additional observations from a re-analysis of the deposited data

How the results depend on the processing

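Igfbp3 passed under all 10 alternatives that give a test. Of the 90 tested values of the 9 genes under them, 72 stayed on their side of the threshold without a change of sign (Insr was at 0 with the scores), 13 lost the call, 4 gained it and 1 changed sign: Insr with the mean of its kept probes, 0.038. With the deposited scores, 1 member fell (Igfbp3, adjusted p = 0.0478, limma) and 1 rose (Igfbp6), 1319 genes and 6 of the other pathway genes fell, and 8 markers fell while 0 rose; 59.4% of its calls were rises, against 38.2%. The scores are rounded to 1 decimal, and 19.9% were identical on both arrays. Igfbp6 had a score of 1.3 on both, so the fit saw no spread between its values. The prior of the fit to the scores had 0.426 degrees of freedom, against 7.14 in the main fit. The part of the rounding in these calls was not tested. With the processed signals, as the mean of the spots' log2 ratios, 2074 genes fell, and Igfbp2 no longer passed (adjusted p = 0.0821, limma). That count rests on how the spots were combined: in an alternative chosen after seeing the data, spot means with a floor of 15 and no centering, 797 genes rose and 1126 fell, 1 member (Igfbp3), 7 other pathway genes and 29 markers fell, and 3 pathway genes and 0 markers rose. There the log2 ratio of Igf1 was -1.30 with an adjusted p of 0.0766 (limma), and the prior had 2.28 degrees of freedom against 7.14. With median centering 827 genes rose and 1939 fell, and Igfbp2 (adjusted p = 0.0806, limma) and Igfbp7 (0.0766) no longer passed. Their log2 ratios there were -0.54 and -0.55, against -0.52 and -0.47 in the main fit. The prior SD was 0.305 with infinite degrees of freedom, so all genes shared it, against 0.162 in the main fit. The cause of the lost calls was not tested. No marker rose (0) with the processed signals, median centering, an offset of 16 or no filter on dim probes. By the intensity and fold-change rule 3 members, Igf1, Igfbp3 and Igfbp5, were lower at 1.5-fold, and leaving out a replicate gave 1 to 3. Without array 2 the log2 ratio of Igf1 was -1.77 and without array 1 -0.88, values with no test. The test of ratios within an array is itself paired. No paired analysis with a further replicate block was possible because each array gives 1 ratio.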
